A study of Larimichthys crocea with 3 samples.

Results

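The genes described here are 4 immediate early transcription regulators (atf3, ier2, fosl1 and srf), the interferon regulatory factor irf1, and both copies of the cytokine feedback inhibitor socs3 (socs3a and socs3b). They are 7 of the 27368 features counted in single cells of the testis of Larimichthys crocea (large yellow croaker), a marine teleost that breeds seasonally. The features atf3, irf1, ier2, fosl1 and srf were found by their own symbol, while socs3a (LOC104925065) and socs3b (LOC104933891) were found through the reference gene name of their LOC number. The genes were selected on measured values, namely their levels across these libraries, so those levels are given as a description and carry no test. A second feature, LOC104936742, carries the reference name ier2a. Its values are given beside those of ier2, because how reads were split between these copies is not given in the sources used here. The reference lists irf1 as irf1b and has no entry named fosl1 or srf. Whether irf1, fosl1 and srf have further copies is therefore not settled here.

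Immediate early genes are transcribed within minutes of a stimulus such as a growth factor, a cytokine, wounding or stress, without new protein synthesis. The serum response factor encoded by srf binds promoters of such genes and of cytoskeletal genes, and the products of fosl1 and atf3 are leucine zipper proteins that join AP-1 and ATF/CREB dimers. The product of irf1 activates interferon-responsive genes, and SOCS3 proteins are induced by STAT signalling and in turn inhibit the JAK kinases of cytokine receptors. In the testis of mammals, cytokines act on Sertoli cells, the somatic cells that enclose the germ cells, and on resident macrophages.

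The study compared 3 stages of the testis, namely an adult differentiating testis, an adult regressed testis and a juvenile testis, with 1 library for each. In an adult differentiating testis germ cells progress through meiosis, and a regressed testis is that of a fish outside its breeding season. The labels give no treatment, genotype, age or number of fish for these groups, and 1 enzymatic digestion protocol, 3 hours at 25 °C, covers all 3 libraries. What that digestion contributed to the levels of immediate early genes was not tested. With 1 library per stage there is no spread between replicates, so every interval below covers counting error at the 95% level, stage and library cannot be told apart, and no p-value is given.

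After filtering, 12839 adult differentiating, 15276 adult regressed and 4560 juvenile cells were kept, with medians of 3479, 12284 and 3088 UMIs (unique molecular identifiers, which stand for captured transcripts). Their median shares of mitochondrial UMIs were 1.56%, 0.197% and 0.299%, and the bearing of this difference on the levels was not tested. Levels are counts per 1000000 UMIs of the library (CPM) in the sum of its kept cells, a 3′ count that does not scale with transcript length. In such sums, fewer cells of a type and less RNA of a gene per cell cannot be told apart. The libraries shared 14 to 45 kept cell barcodes between any pair. Summed spermatocyte markers reached 6708, 2251 and 617 CPM in the order adult differentiating, adult regressed and juvenile, and summed oocyte markers reached 71.5, 127 and 5806 CPM. The juvenile library labelled testis therefore held more oocyte than spermatocyte marker RNA. Of its cells, 83.1% lay in 4 clusters (1, 2, 3 and 5) that scored highest for the oocyte list without meeting the rule for a name. Oocyte marker RNA was not confined to these clusters, where it was at 6854 to 7731 CPM. It was at 5517 CPM in cluster 4, 5361 in the erythroid-like cluster 8, 3041 in the Sertoli-like cluster 7 and 1700 in the spermatocyte-like cluster 6. Why it was found across clusters was not tested. Summed Sertoli cell markers were at 6.14, 21.4 and 273 CPM and macrophage markers at 7.20, 3.40 and 151 CPM in the order adult differentiating, adult regressed and juvenile.

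All 7 genes were higher in the regressed than in the differentiating testis, by 3.58-fold for srf to 36.2-fold for atf3 (14.3-fold for atf3 with doublets kept), and the juvenile testis lay between them for every gene but srf. For atf3, irf1 and socs3b the place of the juvenile testis in that order changed under another setting, given with each gene. The gene atf3, whose product is a stress-induced repressor or activator of transcription, had 189 UMIs and 2.64 CPM (2.28–3.04) in the differentiating library. Its level was 95.5 CPM (94.2–96.7) in the regressed and 69.1 CPM (65.8–72.5) in the juvenile library. The differentiating library was thus far below both others for atf3, and the regressed library was 1.38-fold (1.31–1.45) above the juvenile one. Scaling the libraries by median ratios over 9987 features, instead of by total UMIs, shifts every regressed over juvenile ratio by -0.47, every juvenile over differentiating ratio by 0.54 and every regressed over differentiating ratio by 0.06 on the log2 scale. The regressed over juvenile ratio of atf3 was then 0.994, so the order of the regressed and juvenile libraries for atf3 depends on the scaling.

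The level of irf1 was 2.16 CPM (1.84–2.53) in the differentiating, 55.1 CPM (54.1–56.1) in the regressed and 46.0 CPM (43.3–48.8) in the juvenile library. It followed the pattern of atf3, with a regressed over juvenile ratio of 1.197 (1.13–1.27) that turned to 0.862 under median-ratio scaling. The level of ier2, which encodes a nuclear immediate early protein, was 3.78 CPM (3.35–4.26) in the differentiating, 108 CPM (106–109) in the regressed and 48.8 CPM (46.0–51.7) in the juvenile library. For ier2 the regressed library stood 2.21-fold (2.08–2.35) above the juvenile one. The second copy, ier2a, was at 4.63, 239.7 and 53.7 CPM in that order, the same order as ier2.

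The Fos-related AP-1 gene fosl1 was the most abundant of the 7 genes in both adult libraries. It reached 21.7 CPM (20.6–22.8) in the differentiating, 262 CPM (260.3–265) in the regressed and 62.2 CPM (59.1–65.5) in the juvenile library. The regressed library was 12.1-fold (11.5–12.7) above the differentiating and 4.22-fold (4.01–4.44) above the juvenile one. The level of srf was 17.6 CPM (16.6–18.6) in the differentiating, 62.9 CPM (61.9–63.9) in the regressed and 5.26 CPM (4.38–6.27) in the juvenile library. In these sums srf was the only one of the 7 genes that was lower in the juvenile than in the differentiating library, at 0.299 (0.247–0.360) of its level.

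The copies of socs3 differed in the juvenile testis. The level of socs3a was 10.3 CPM (9.56–11.1) in the differentiating, 219 CPM (217–221) in the regressed and 126 CPM (121–130.3) in the juvenile library. The level of socs3b was 2.74 CPM (2.37–3.15), 47.4 CPM (46.5–48.3) and 4.54 CPM (3.73–5.49) in the same order. For socs3a the juvenile library was 12.2-fold above the differentiating one, whereas for socs3b the ratio was 1.66 (1.30–2.11). The ratio for socs3b fell to 0.989 with doublets kept, to 0.990 over every deposited barcode, and to 0.716 as a mean over cells, so its direction between these libraries was not stable.

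**Figure D1:**
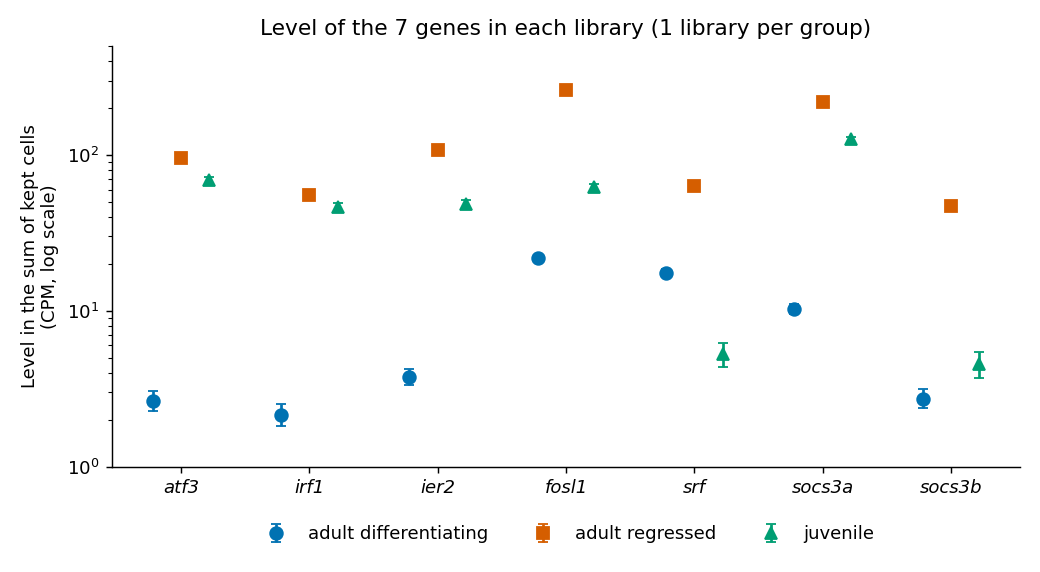
Level of each of the 7 genes in each library, in CPM on a log scale, from the UMIs summed over kept cells. Bars are 95% Poisson intervals, which cover counting error only. The regressed library (squares) is highest for all 7 genes (under median-ratio scaling for 5, as atf3 and irf1 turn to 0.994 and 0.862 of the juvenile level), and the juvenile library (triangles) falls below the differentiating one (circles) for srf.

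Counted by the 2-fold rule, 7 of 7 genes were higher in the regressed than in the differentiating library, where 22.1% of 18116 features met that rule. The median ratio was 21.3 over the 7 genes and 1.07 over all features, and 6 of the genes were at least 10-fold higher, as were 2.16% of features. None was at least 2-fold lower, beside 19.5%. Against the juvenile library, 4 of 7 (ier2, fosl1, srf and socs3b) were at least 2-fold higher in the regressed one, beside 37.7% of 18030 features, and 0 were lower, beside 20.0%. The count of higher genes was 3 under median-ratio scaling, and it was 7 when CPM was computed per cell and then averaged. Between the juvenile and the differentiating library, 5 genes were at least 2-fold higher in the juvenile one, beside 23.1% of 15667 features, and 1 (srf) was lower, beside 43.1%. Under median-ratio scaling, 6 were higher and 1 lower. The genes were chosen with these levels known, so the counts describe the choice, and the 3 comparisons share libraries.

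Within each library the order of the genes differed. In the differentiating library fosl1 and srf led, followed by socs3a and ier2, and the intervals of socs3b, atf3 and irf1 overlapped their neighbours' at the bottom. In the regressed library the order was fosl1, socs3a, ier2, atf3, srf, irf1 and socs3b, with no overlap of intervals. In the juvenile library socs3a led, followed by atf3 and fosl1, then by ier2 and irf1, whose intervals overlapped, and by srf and socs3b, whose intervals also overlapped. Of the UMIs of all 7 genes together, srf held 28.9% in the differentiating, 7.39% in the regressed and 1.45% in the juvenile library. The share of socs3a moved the other way, from 16.9% through 25.8% to 34.8%.

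The genes were found in more cells of the regressed testis, also when every cell was thinned to the same depth. Unthinned, at least 1 UMI of atf3 was seen in 0.701% of differentiating, 31.6% of regressed and 7.11% of juvenile cells, and one of fosl1 in 8.18%, 76.9% and 8.25%. After thinning to 1000 UMIs per cell, which left out 1326, 651 and 194 shallower cells, atf3 was found in 0.104% (0.0539–0.182), 7.40% (6.98–7.83) and 2.02% (1.62–2.48) of cells. The regressed library therefore kept the highest share for atf3 at equal depth. Thinned shares for fosl1 were 1.93% (1.68–2.20), 22.9% (22.2–23.6) and 1.74% (1.37–2.17), so the differentiating and juvenile shares overlapped although the summed levels differed 2.87-fold (2.67–3.08). Thinned shares for socs3b were 0.148%, 5.33% and 0.0458%, the last from 2 cells. In the spermatid-like cluster 10 of the differentiating library, with a median of 6441 UMIs, atf3 was found in 0.457% and fosl1 in 1.52% of 657 cells unthinned. In the spermatid-like cluster 12, with a median of 5831 UMIs, atf3 was found in none of 547 cells and fosl1 in 0.731%.

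**Figure D2:**
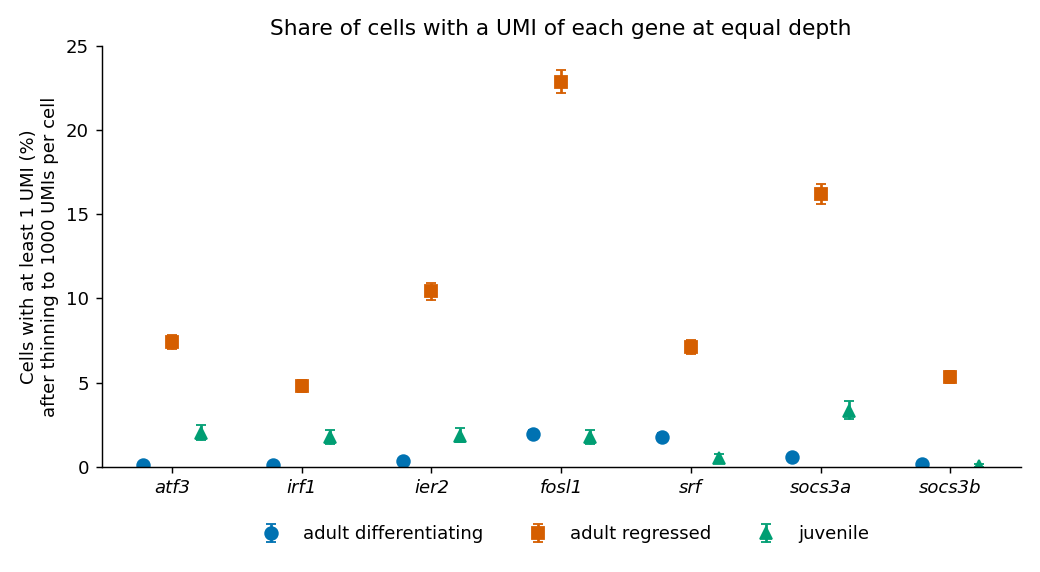
Share of cells with at least 1 UMI of each gene after thinning every cell to 1000 UMIs, by library, with 95% Clopper-Pearson intervals that cover counting error only. The regressed library has the highest share for all 7 genes, from 4.80% for irf1 to 22.9% for fosl1.

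The juvenile level came from few cells. Of the juvenile atf3 UMIs, 50% or more lay in 16 of 4560 cells, and 1 cell alone held 159 UMIs. For socs3a the number was 15 cells, and the highest cell held 509 UMIs, which was 17.0% of all its UMIs in that library. In the regressed library the corresponding numbers were 528 cells for atf3, 1105 for socs3a and 2020 for fosl1. For atf3 and socs3a the regressed signal was thus spread over a larger share of cells (3.46% and 7.23%) than the juvenile signal (0.351% and 0.329%). Depth was not made equal for these shares. The differentiating atf3 signal was narrower still, with 20 of 12839 cells (0.156%). The juvenile srf signal was not led by a few high cells, as it took 38 of the 100 cells with a UMI.

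Cells were clustered within each library with the 7 genes and all listed pathway genes left out, and the levels of the genes were then read by cluster. In the juvenile testis, the 83 Sertoli-like cells of cluster 7 (raised markers wt1, gsdf, dhh, amh and inha among others) made up 1.82% of cells. These cells were deep, with a median of 13917 UMIs against 3088 over the library. They held 42.8% of the atf3, 61.4% of the socs3a, 63.2% of the fosl1 and 72.2% of the socs3b UMIs of the library. Their level was 399 CPM for atf3, 1042 CPM for socs3a and 44.3 CPM for socs3b, and fosb, another Fos gene, and fkbp5, a glucocorticoid-responsive chaperone gene, were among the leading genes of this cluster. At a coarser clustering (Leiden resolution 0.5) the highest juvenile cluster level of atf3 was 150.2 CPM, and that of socs3a was 277 CPM.

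A further 2 small juvenile clusters carried high levels but, with under 50 cells, were left without a name. Cluster 12, of 21 cells in which all 10 macrophage marker features were raised, had the highest atf3 level of any cluster at 1367 CPM, and it held 24.8% of the juvenile atf3 UMIs and 10.2% of the irf1 UMIs. No UMI of socs3b was seen in these 21 cells. Cluster 9, of 46 cells, scored highest for the lymphocyte list with ptprc raised, was led by mep1ba and flt3, and reached 1249 CPM for socs3a and 633 CPM for atf3. In cluster 11, of 41 cells with cd3e, ptprc, zap70 and lck raised, irf1 was at 214 CPM while atf3 was at 18.6 CPM. Summed lymphocyte markers were at 696 CPM in cluster 9 and 384 CPM in cluster 11, and irf1 was at 73.9 CPM in cluster 9 and 376 CPM in cluster 12. The clusters with lymphocyte markers thus differed in atf3, and the highest irf1 level was in the cluster with raised macrophage markers.

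Clusters 7, 9 and 12 together had 150 cells, or 3.29% of the cells and 9.86% of all UMIs of the juvenile library. Outside them the level was 16.4 CPM for atf3, 23.9 for irf1, 19.8 for ier2, 19.9 for fosl1, 30.9 for socs3a, 1.31 for socs3b and 4.81 for srf. The gene srf was the least concentrated of the 7, since these 150 cells held 17.6% of its UMIs, against 53.1% to 78.6% for the others. Its level was still higher inside these clusters than outside, at 9.39 CPM from 22 UMIs against 4.81 CPM. In clusters 1, 2, 3 and 5, which hold most juvenile cells, atf3 was at 8.56 CPM and socs3b at 0.157 CPM, from 2 UMIs in 3788 cells.

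In the differentiating testis most UMIs of atf3, irf1 and ier2 came from 1 cluster. Cluster 16, of 170 cells with a median of 21898.5 UMIs, scored highest for the Leydig list, with no marker of that list raised. Its leading genes included dnd1, a gene of germ cells that is on the undifferentiated spermatogonia list. Of its other leading genes, 5 also lead juvenile clusters 4, 8 (erythroid-like) or 10. Cluster 16 held 5.27% of all UMIs of the library. It held 76.2% of the atf3, 68.4% of the irf1 and 57.2% of the ier2 UMIs, but 5.40% of the srf and 8.63% of the fosl1 UMIs. Its levels were 38.1 CPM for atf3, 28.1 for irf1, 41.1 for ier2 and 66.7 for socs3a, and those of fosl1 and srf were 35.5 and 18.0 CPM. Outside cluster 16 the level of atf3 was 0.663 CPM. Cluster 3, of 1317 cells led by the DNA replication genes mcm3, mcm4, mcm6 and mcm7, had 22.9 CPM of socs3a and 6.12 CPM of socs3b, the highest levels of both outside cluster 16 apart from the 29.5 CPM of socs3a in the shallow cluster 8. It was also high for fosl1, at 40.6 CPM, with 38.4% of the fosl1 and 27.6% of the srf UMIs.

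The genes fosl1 and srf were spread over more clusters. In the spermatocyte-like cluster 4, of 1232 cells, fosl1 was at 45.5 CPM and srf at 37.2 CPM, while atf3 was at 0.593 CPM. In the spermatid-like clusters 9 to 12 together, of 2481 cells, atf3 had 3 UMIs, socs3b had 2 and srf had 14. All 7 genes were thus lower there than in the rest of the library, down to 0.276 CPM for atf3 and 1.29 CPM for srf, against 3.06 and 20.5 CPM elsewhere. These values depended on the doublet filter. With doublets kept, the level in the differentiating library was 6.996 CPM for atf3, 4.41 for irf1, 6.22 for ier2, 20.2 for socs3a and 4.44 for socs3b, and the regressed over differentiating ratio of atf3 was 14.3.

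In the regressed testis, atf3, irf1 and ier2 peaked in clusters 7, 9 and 14. Cluster 7 (1070 cells, led by smim22 and by the epithelial adhesion gene epcam, with the oocyte markers figla and nobox raised) had 456 CPM of atf3, 227 of irf1 and 395 of ier2. Cluster 9 (694 cells) had 489, 223 and 304 CPM of the same genes, and the 255 Sertoli-like cells of cluster 14 had 419.9, 200.2 and 238 CPM. Immune genes, the chemokine gene cxcl8a and the hepcidin gene hamp, were among the leading genes of cluster 14. These 3 clusters hold 13.2% of cells, and they held 66.6% of the atf3, 55.5% of the irf1 and 43.8% of the ier2 UMIs.

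Outside clusters 7, 9 and 14 the level of atf3 was 36.9 CPM against 462 CPM inside, whereas fosl1 was at 264 CPM inside and 262 CPM outside. The level of srf was also alike on both sides, at 61.5 and 63.1 CPM. Cluster 9 had atf3, socs3a, irf1 and fosab among its leading genes, and it had the highest regressed level of socs3a at 819 CPM. None of these genes took part in the clustering. Genes with a like pattern, such as rnf19b and midn, were not left out of it and were also among the leading genes of cluster 9. The high levels there are therefore not independent of the clustering.

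Other regressed clusters were highest for fosl1, srf and socs3b, although the next highest for fosl1, at 354 CPM, was the Sertoli-like cluster 14. Cluster 5, of 1277 cells led by the centromere histone gene cenpa, had the highest levels of fosl1 at 447 CPM and of socs3b at 111 CPM, and the lowest of irf1 at 9.96 CPM. The highest level of srf was 153 CPM in cluster 16, of 148 cells, followed by 136 CPM in cluster 3, of 1762 cells. Clusters 3 and 5 together had 104 CPM of srf and 93.7 CPM of socs3b against 53.6 and 36.8 CPM elsewhere, but 31.7 CPM of atf3 against 110.0 CPM elsewhere. Cluster 17, of 74 cells with the lymphocyte markers cd8a, cd3e, ptprc and zap70 raised, had the lowest srf at 17.7 CPM and the lowest fosl1 at 124 CPM. Its median depth was 1561 UMIs, so the srf value rests on few UMIs.

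**Figure D3:**
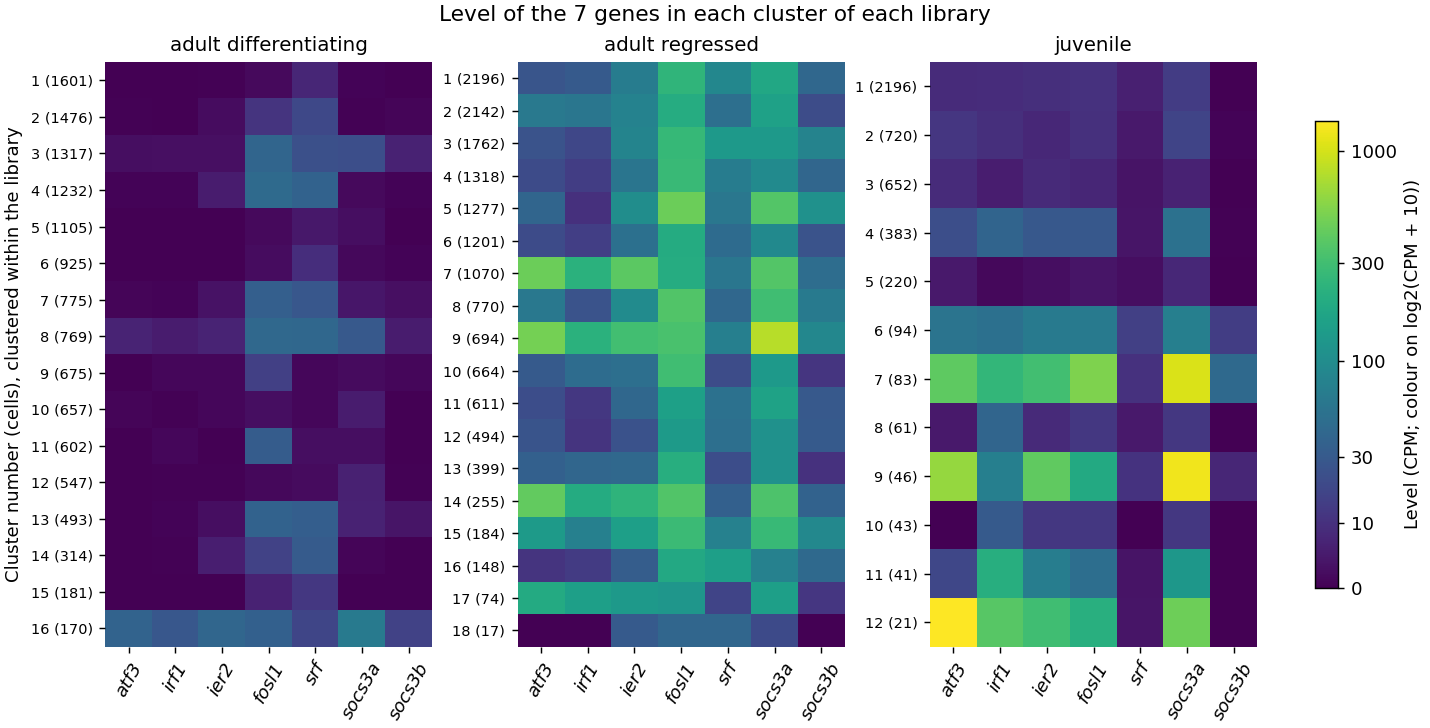
Level of the 7 genes (columns) in each cluster (lines, with the number of cells) of each library; colour is log2(CPM + 10), labelled in CPM. In the regressed library atf3, irf1 and ier2 are brightest in clusters 7, 9 and 14, in the differentiating library all 3 are brightest in cluster 16, and in the juvenile library atf3 and ier2 are brightest in clusters 7, 9 and 12 and irf1 in clusters 7, 11 and 12.

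Compared over clusters of at least 50 cells, the libraries overlapped for some genes and not for others. The share of all features that separate in the same way was not counted, so the counts below describe these genes only. Every one of the 17 regressed clusters was above all 16 differentiating clusters for fosl1 (123.6 CPM at the lowest against 45.5 at the highest) and for socs3a (78.0 against 66.7). For atf3 this held in 8 of 17 regressed clusters and for irf1 in 9. The lowest regressed socs3a level came from cluster 16, of 148 cells with a median of 3490 UMIs. The separation for socs3a is thus narrow and uncertain for that cluster. Every regressed cluster was above all 8 juvenile clusters for srf (17.7 against 15.7). That lowest regressed value came from cluster 17, of 74 cells with a median of 1561 UMIs. It rests on few UMIs, so this separation is uncertain for that cluster. The juvenile Sertoli-like cluster was above every regressed cluster for irf1 (254 against 227 CPM), fosl1 (531 against 447) and socs3a (1042 against 819). In that cluster a single cell held 19.9% of the irf1, 9.09% of the fosl1 and 27.8% of the socs3a UMIs. Its place for irf1 and socs3a thus depends on 1 cell for each gene.

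Both the regressed and the juvenile library had a Sertoli-like cluster, so the levels could be set side by side in cells that share wt1, gsdf, dhh, inha and cldn11a as raised markers; fshr was raised only in the regressed cluster, and amh and wt1a only in the juvenile one. This comparison was added after the clusters were seen. In the juvenile Sertoli-like cluster, summed Sertoli markers were at 2571 CPM and summed oocyte markers at 3041 CPM. What the oocyte marker RNA means for the ratios below was not tested. In the 255 regressed and 83 juvenile Sertoli-like cells, atf3 was at 419.9 and 399 CPM, a juvenile over regressed ratio of 0.951 (0.870–1.04). The interval of socs3b, at 37.6 and 44.3 CPM with a ratio of 1.18 (0.886–1.55), also held 1. These intervals do not show that the levels were alike in the animals, as only 1 library stands behind each. For atf3 a single cell held 22.6% of the juvenile UMIs, and without the highest cell of each cluster the ratio was 0.777. Over the 6941 features compared the median log2 ratio was -0.71, so a ratio of 1 was not the middle of all features.

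For socs3a the regressed Sertoli-like cells had 339.7 CPM and the juvenile ones 1042 CPM, a ratio of 3.07 (2.86–3.29). For srf they had 35.5 and 10.2 CPM, a ratio of 0.288. Under the 2-fold rule 1 gene (socs3a) was higher in the juvenile Sertoli-like cells, beside 12.4% of 6941 features, and 1 (srf) was lower, beside 40.1%. A single cell held 27.8% of the juvenile Sertoli-like socs3a UMIs, and without the highest cell of each cluster the ratio was 2.30. The remaining ratios were 1.27 for irf1, 1.27 for ier2 and 1.499 for fosl1. Without the highest cell of each cluster that of irf1 was 1.09. The copy ier2a was at 424 and 62.5 CPM, a ratio of 0.147, opposite in direction to ier2.

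Co-detection was counted for the 21 pairs of the 7 genes, as the number of cells with both genes over the number expected if the genes were found independently within 10 strata of UMIs per cell. All 21 pairs were seen together more often than expected in the differentiating and in the juvenile library, and 18 in the regressed library. The median ratio of observed to expected was 2.20, 1.05 and 1.76 in the differentiating, regressed and juvenile library. A ratio of at least 1.5 was reached by 16, 0 and 15 pairs. Pairs of other features were not counted in this way. These counts therefore describe the 7 genes and do not show that their excess is particular to them. Such a ratio has a ceiling where a gene is found in most cells, as fosl1 was in the regressed library, so ratios are not comparable across libraries.

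The pair of atf3 and irf1 had the highest ratio within depth strata in both adult libraries. In the differentiating library 32 cells had both against 4.83 expected, a ratio of 6.62. In the deepest stratum there, 5.53% of cells had atf3 and 6.78% irf1, against at most 0.389% in any other. Cells with atf3 and cells with irf1 had medians of 23751 and 24108 UMIs, against 16177 over that stratum. Depth was not matched within it, so the expectation may be too low. In differentiating cells thinned to equal depth none had both, with 0.0135 expected, too few to decide. In the regressed library 2736 cells had both against 1868 expected, a ratio of 1.46, and Pearson's r of the log-normalised values was 0.49 over 15276 cells. In the juvenile library 131 cells had both against 76.1 expected, a ratio of 1.72. The highest juvenile ratio was that of ier2 and socs3b, with 34 cells against 12.2 expected (2.78).

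Pairs with srf had low ratios in the adult libraries, except the pair with socs3b in the regressed library (1.07). For atf3 and srf, 29 cells were seen against 21.3 expected in the differentiating library (1.36) and 2648 against 2721 in the regressed library (0.973), where r was -0.02. In the juvenile library the number was 22 cells against 16.1 (1.37). The pair of fosl1 and srf had 268 cells against 153 expected in the differentiating library (1.75), 6198 against 6189.8 in the regressed library (1.00) and 28 against 19.8 in the juvenile library (1.42). In the differentiating library srf was thus seen with fosl1 more often than with atf3, while in the regressed library it was close to independent of both.

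**Figure D4:**
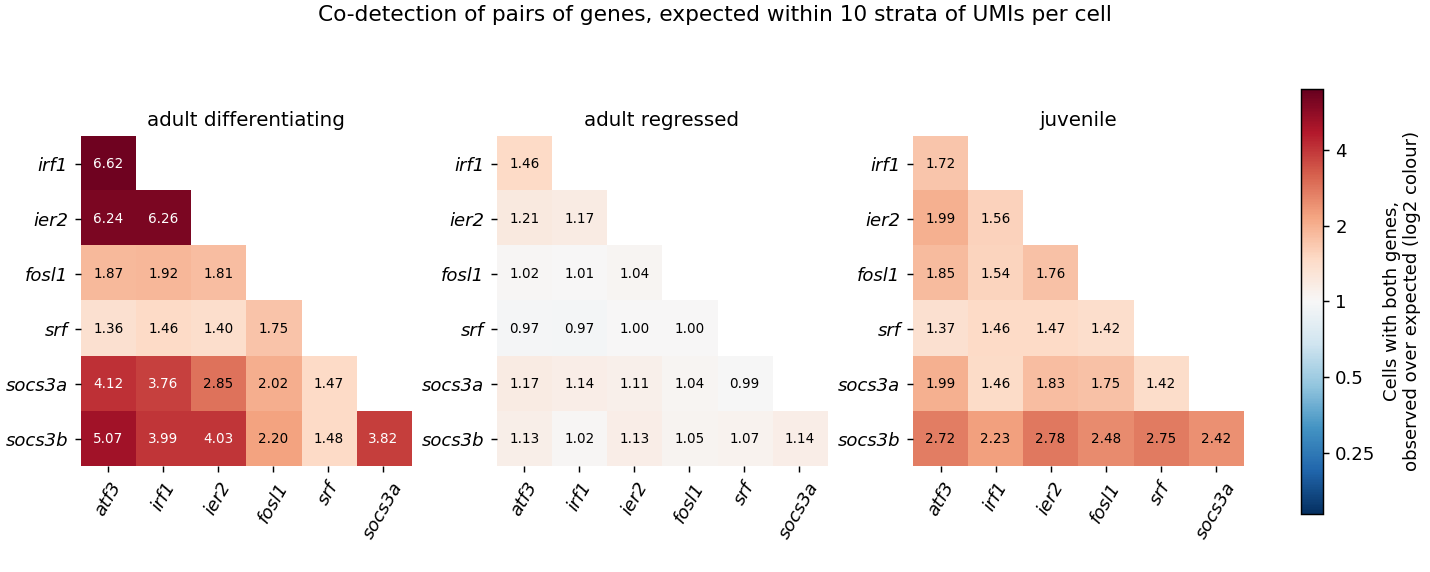
Number of cells with both genes of a pair over the number expected within 10 strata of UMIs per cell, for the 21 pairs in each library; the colour is on a log2 scale and each value is printed. Depth was not matched within a stratum. Pairs among atf3, irf1 and ier2 reach 6.24 to 6.62 in the differentiating library and 1.17 to 1.46 in the regressed library. Pairs with srf are among the lowest in both, except srf with socs3b at 1.07 in the regressed library.

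The excess was smaller within clusters. When the expectation was formed within each cluster as well as within depth strata, the median ratio was 1.13, 1.04 and 1.12 in the differentiating, regressed and juvenile library, and the number of pairs at 1.5 or more was 1, 0 and 0. At least 4 of the 7 genes were found in 96 differentiating cells (0.748%) against 10.1 expected, in 7297 regressed cells (47.8%) against 7418 expected, and in 162 juvenile cells (3.55%) against 63.0 expected. In regressed cells thinned to 1000 UMIs the number was 151 against 37.3 expected, so at equal depth the regressed library also had more such cells than expected. Of the 96 differentiating cells, 61.5% lay in cluster 16 and 32.3% in cluster 3. Of the 162 juvenile cells, 32.7% were Sertoli-like and 28.4% lay in the deep, unnamed cluster 4. Clusters 6 and 9 held 13.0% each, and cluster 12 held 11.1%.

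All 7 genes were found together in 690 regressed cells (4.52%) against 292 expected, in 4 juvenile cells and in none of 12839 differentiating cells. The differentiating cells had a median of 3479 UMIs, so a gene not found in a cell was not shown to be absent from it. The cells with at least 4 genes were deep, with medians of 34850.5, 15610.0 and 18750.0 UMIs in the differentiating, regressed and juvenile library. None of the 7 genes was found in 83.5% of differentiating, 8.92% of regressed and 76.1% of juvenile cells. Within the regressed library, cells with at least 4 genes made up 88.0% of cluster 9 and 81.5% of cluster 7, but 21.3% of cluster 1, whose median depth was 3121 UMIs.

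**Figure D5:**
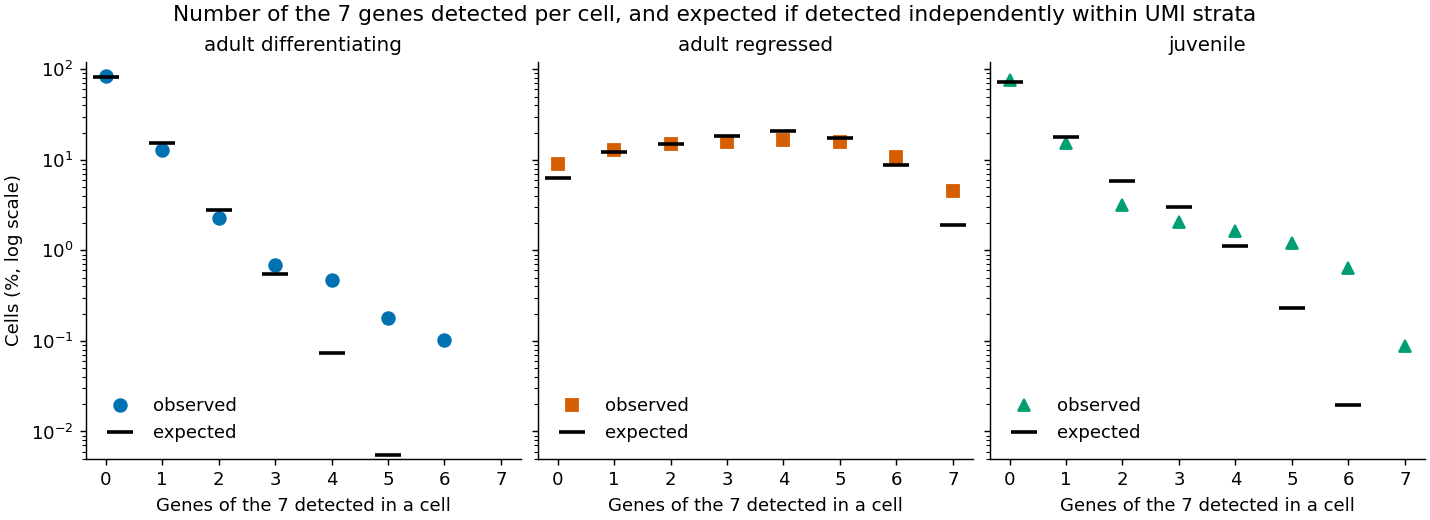
Share of cells in which 0 to 7 of the 7 genes were found (symbols, log scale) and the share expected if each gene were found independently within 10 strata of UMIs per cell (bars); shares of 0 and those under the axis are not drawn. In the differentiating and juvenile libraries the observed share of cells with 4 or more genes, 0.748% and 3.55%, is above the expected one. In the regressed library the observed share is above the expected one at 6 and 7 genes and also at 0 and 1.

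Across the 41 clusters of at least 50 cells in the 3 libraries, the features with the pattern most like each gene were found by Pearson's r of log2(CPM + 10) over 12800 features. The clusters share libraries and depth, and r over all 41 includes the differences between libraries. It is thus a description and not a measure of likeness within a library. For atf3 the closest features were malt3 (0.94), LOC104929738 (0.94) and midn (0.93). For irf1 they were myadma (0.92), LOC104931204 (0.92) and dusp2 (0.91), and for ier2 rnf19b (0.96), junbb (0.96) and dusp2 (0.94). For socs3a they were junbb (0.97), rnf19b (0.95) and bag3 (0.94), so that junbb, a Jun family gene, and rnf19b stood close to both ier2 and socs3a.

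For fosl1 the closest features were dusp5 (0.95), chac1 (0.94) and etv6 (0.94), and for socs3b they were LOC104932381 (0.96), LOC104926639 (0.94) and cdkn1a (0.95), the gene of a cell cycle inhibitor. For srf they were acsbg2 (0.96), slc16a6b (0.95) and acap2 (0.94), none of which was close to another of the 7 genes by this rule. Among the 7 genes themselves r over the 41 clusters ranged from 0.33 (irf1 with srf) to 0.96 (ier2 with socs3a). Over the 17 regressed clusters alone, r was 0.94 for atf3 with irf1, 0.70 for srf with socs3b and -0.31 for irf1 with srf. Some pairs were far less alike there than over all 41 clusters. For irf1 with fosl1, r was 0.70 over all 41 and 0.07 in the regressed clusters. For ier2 with fosl1 these values were 0.87 and 0.38, while atf3 with irf1 had 0.95 over all 41.

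Other immediate early genes, from a list chosen by function, did not all follow. Of 27 list members measured, 19 were at least 2-fold higher and 2 lower in the regressed than in the differentiating library, with a median ratio of 3.55; over all features the shares were 22.1% higher and 19.5% lower. Against the juvenile library, 8 were higher and 15 lower in the regressed one (2 and 17 under median-ratio scaling), beside 37.7% and 20.0% of all features (25.9% and 26.7% under that scaling). These shares over all features apply to each list below. The median ratio of the list against the juvenile library was 0.458, where that of the 7 genes was 2.21. The AP-1 genes fosab and junbb were at 32.2 and 10.0 CPM in the differentiating, 349 and 368 CPM in the regressed, and 263 and 149.6 CPM in the juvenile library. They thus had the order of ier2 and fosl1, except that the regressed over juvenile ratio of fosab, 1.33, turns below 1 with the shift of median-ratio scaling. The zinc finger gene egr2 was at 0.656, 33.5 and 2.06 CPM, and btg1, an antiproliferative gene, was at 236, 189 and 553 CPM, highest in the juvenile library.

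Genes that act with srf behaved unequally. Of 7 tested cofactors and cytoskeletal targets, 3 were higher in the regressed than in the differentiating library and 6 of 7 higher than in the juvenile one (5 under median-ratio scaling), with none lower, beside 22.1% and 37.7% of all features higher. The actin gene actb1 was at 247, 1715 and 781 CPM in the order differentiating, regressed and juvenile, and vcl, the vinculin gene, at 2.76, 11.5 and 1.39 CPM. The cofactor gene elk4 was at 45.0, 24.2 and 5.47 CPM, and thus highest in the differentiating library, unlike srf, while the cofactor gene mrtfab was at 16.2, 23.9 and 15.8 CPM. The related elk3 was scarce, at 0.0698, 2.16 and 0.421 CPM, with the order of ier2.

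Of the other stress transcription factors of the ATF/CREB and C/EBP families and the GADD45 genes, 7 of 18 were higher and 2 lower in the regressed than in the differentiating library. Against the juvenile library 8 were higher and 3 lower (5 and 5 under median-ratio scaling), shares near the 37.7% and 20.0% of all features. The DNA damage-inducible gene gadd45b was at 38.4, 1374 and 662 CPM in the order differentiating, regressed and juvenile, an order shared with ier2. Its relative gadd45g was at 0.851, 17.5 and 3.91 CPM in the same order, while gadd45aa was at 262, 175 and 56.5 CPM and highest in the differentiating library. The gene atf4a, which encodes a translationally controlled stress factor upstream of atf3 in mammals, was at 312, 133 and 179 CPM, so it was highest where atf3 was lowest. Its second copy atf4b, named after its values were seen, was at 112, 137 and 211 CPM. This copy was lowest in the differentiating library, as atf3 was, so the copies of atf4 did not share 1 order.

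Among 8 other interferon regulatory factors tested, 5 were higher in the regressed than in the differentiating library and none lower, beside 22.1% and 19.5% of all features. Against the juvenile library 2 were higher and 4 lower (1 and 4 under median-ratio scaling), and 5 were higher and none lower in the juvenile than in the differentiating library, beside 23.1% and 43.1%. The gene irf2, an antagonist of irf1 in mammals, was at 18.2, 43.8 and 14.1 CPM. The level of irf5 was 16.02, 21.3 and 17.6 CPM. The family did not share 1 pattern. Named after their values were seen, irf8, at 0.209, 5.36 and 4.25 CPM, had the order of irf1, and irf3 and irf7, at 0.363, 4.02 and 11.2 CPM and at 0.530, 5.10 and 18.6 CPM, were likewise lowest in the differentiating library.

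In the remaining SOCS family, 3 of 7 genes were higher and 1 lower in the regressed than in the differentiating library (3 and 0 under median-ratio scaling), and 4 of 7 were higher than in the juvenile one. The feedback gene cish was at 3.31, 97.0 and 21.8 CPM, with a regressed over juvenile ratio of 4.46, between those of socs3a and socs3b. In contrast, socs9 was at 95.3, 46.7 and 40.4 CPM and socs5 at 42.0, 44.8 and 13.8 CPM. Of 18 tested genes of JAK-STAT signalling, 7 were higher and 2 lower in the regressed than in the differentiating library. Against the juvenile library 9 of 19 were higher and 5 lower (5 and 6 under median-ratio scaling), shares near those of all features under that scaling. The gene stat3, whose product induces socs3 in mammals, was at 58.0, 91.5 and 26.7 CPM, and stat1a at 82.0, 28.5 and 42.2 CPM. The phosphatase gene ptpn11 was at 122, 37.5 and 11.3 CPM. The level of stat3 was thus highest in the regressed library, as for socs3a and socs3b, and the difference from the differentiating library was 1.58-fold.

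Heat shock genes, which rise with cell stress and dissociation, were counted beside the 7 genes. Of 12, 8 were higher and 0 lower in the regressed than in the differentiating library, and 7 were higher and 0 lower in the juvenile than in the differentiating library (8 under median-ratio scaling), beside 22.1% and 23.1% of all features higher. Against the juvenile library 3 were higher and 4 lower in the regressed one. The cochaperone gene bag3 was at 7.08, 73.5 and 14.9 CPM in the order differentiating, regressed and juvenile, and hsp90aa1.1 at 1.09, 17.9 and 1.68 CPM. The most abundant, hsp90ab1, was at 4487, 2461 and 2245 CPM, hspa5 was at 138, 107 and 133 CPM, and hsp90aa1.2 was at 90.3, 218 and 290.3 CPM. Named after their values were seen, hspa1b was at 0.0977, 6.32 and 26.8 CPM and hspb1 at 0.0279, 1.98 and 29.2 CPM. Of the 12 heat shock genes, 8 were lowest in the differentiating library, but the share of all features lowest there was not counted. The part of heat shock genes in the levels of the 7 genes was not tested.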

How the data were processed

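Single-cell libraries of 3 testes (adult differentiating, adult regressed, juvenile; 1 library each) were prepared with 10x Genomics Chromium 3′ v3 reagents, as the labels' protocols state. Raw UMI counts of each feature in each barcode were deposited by the authors, and per the file headers Cell Ranger 5.0.0 wrote them. The submitters' processing notes name Cell Ranger 3.1.0 and STAR. The genome build used for counting is not given in the sources used here. Names of LOC features came from the RefSeq gene table of assembly L_crocea_2.0, which held 15971 of 15972 LOC features and gave 6125 of them a symbol. No sequence or coordinate is printed.

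Kept cells had at least 500 UMIs, 300 genes and at most 20% mitochondrial UMIs over 13 mitochondrial genes. Each library's doublet scores followed Scrublet's method in own code, and the highest scores were removed at 0.8% per 1000 barcodes (1752, 2543 and 180 barcodes). Kept cells held 71650841, 223550080 and 23769442 UMIs in the order adult differentiating, adult regressed and juvenile, after 102809626, 293009193 and 24826985 UMIs as deposited.

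Levels were CPM with exact Poisson intervals, ratios had exact conditional binomial intervals, and shares of cells had Clopper-Pearson intervals, all at 95%. A feature was called higher or lower at 2-fold, among features with at least 100 UMIs in both libraries together. UMIs remove PCR copies, but the intervals cover counting error only. Co-detection was read within 10 strata of UMIs per cell. Clusters came from each library alone, with 2000 variable genes, 30 components, 20 neighbours and Leiden resolution 1, leaving out the 7 genes, the listed pathway genes and mitochondrial and ribosomal genes. A cluster was called X-like if at least 3 markers of its best class were raised 2-fold over the mean of all clusters and found in 5% of its cells. Unnamed were also clusters with more markers of another class among their 10 leading genes, those with a median under 0.333 of their library's UMIs and no own marker among those genes, those led by mitosis genes and those under 50 cells. The mitosis rule, the grouping of clusters and the comparison of Sertoli-like cells were added after the clusters were seen.

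The 7 genes and all lists were chosen with earlier results of these data known. Of the pathway lists, the 3 features of highest summed CPM and those at least 4-fold apart between the regressed library and both others were eligible to be named, and for likeness the 3 features of highest r per gene. A further eligible feature is not reported here. A marker or leading gene of a cluster was named after its values were seen. Alternatives covered the cell filter, doublets, scaling, thinning, strata and clustering resolution. Python 3.11.15, numpy 2.4.6, scipy 1.17.1, leidenalg 0.10.2 and matplotlib 3.10.9 were used, and the calling and co-detection steps were tested on simulated data.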

Additional observations from a re-analysis of the deposited data

How the results depend on the processing

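No paired analysis was possible because each stage has 1 library. The number of the 7 genes at least 2-fold higher in the regressed than in the juvenile library, 4 from sums, was 7 when each cell's CPM was averaged over cells. Within clusters, the pairs co-detected at 1.5 times expectation or more numbered 1 in the differentiating (16 without clusters) and 0 in the juvenile library (15 without clusters). In cells thinned to 1000 UMIs, with no depth strata, 13 of 21 pairs were seen together more often than expected in the differentiating library. In that setting 7 regressed pairs reached 1.5 times, where 0 did unthinned within strata. Apart from fosl1 with srf, at 10 cells against 3.90 expected, those 13 differentiating pairs rested on 4 cells or fewer each. The other 73 of 78 recomputed counts of genes and pairs stayed within 1.5 times. Of 126 recomputed ratios, 72 moved beyond their counting interval and 5 changed direction, as 22 of 63 levels and 37 of 63 shares of cells moved beyond theirs. With doublets kept, atf3 was at 6.996 CPM in the differentiating library (2.64 without) and its regressed over differentiating ratio was 14.3. Under median-ratio scaling the regressed over juvenile ratio was 0.994 for atf3 and 0.862 for irf1. The juvenile over differentiating ratio of socs3b was 0.990 over every deposited barcode, 0.989 with doublets kept and 0.716 averaged over cells. The cause of these changes was not tested. In the differentiating library the spermatid-like clusters 9 to 12 held 2 to 66 UMIs of each gene, which limits comparisons among them. The removal of the highest cell of each Sertoli-like cluster, chosen after seeing the data, turned no ratio but moved 3 of 7 beyond their counting interval.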
